A study of Mus musculus with 10 samples.

Results

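Gene expression in mouse embryonic stem (ES) cells with 3 copies of chromosome 8 (Ts8) was compared with that in diploid ES cells (WT). ES cells are pluripotent cells grown from the early embryo, and an extra chromosome 8 is an alteration that ES cultures are known to acquire. The 2 Ts8 samples were taken at passages 10 and 13 and carry the strain label 129 S7/SvEvBrd, and the 2 WT samples were of line AB1 at passages 18 and 20. A further 6 arrays held lines with the strain label of Ts8 and 3 copies of another chromosome, 2 samples each. Ts6 (chromosome 6) was at passages 9 and 18, Ts11 (chromosome 11) at 8 and 11, and Ts15 (chromosome 15) at 11 and 14. All cells had been grown on irradiated SNL76/7 feeder fibroblasts, which were reduced by settling before RNA was taken. Members were the genes whose probe lies on chromosome 8 in the array files (mm9): 1498 of the 28193 genes tested. They were taken by position and not by their values. Of the 1724 chromosome 8 genes on the array the other 226 were too dim on every group, and 17 of the 1498 were tested only because they were above background on both Ts8 arrays.

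When a cell carries an extra copy of a chromosome, each of its genes has an added template, and transcripts of many genes rise with it. How far a given transcript follows the copy number can differ from gene to gene, since transcription and RNA decay are also regulated. In mouse ES cells genes of the germ line, which serve meiosis and the silencing of transposons by piRNAs, are mostly held at low levels by promoter DNA methylation and by repressors that read E-box and E2F-like letters.

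Levels are log2 signal relative to the array's 75th percentile, called relative log2 signal here, so 0 is a bright gene and -5 a dim one. Between 71.4% and 80.2% of an array's spots passed the scanner software's background test. Differences are Ts8 minus WT on the log2 scale with limma's standard error, and a call is an adjusted p under 0.05 over all genes (Benjamini-Hochberg, 2 arrays a group, spread shared over 5 groups). The strain label, the passage and the column of the slide differ between Ts8 and WT with the karyotype and cannot be told apart from it. The ES cell markers were bright in both lines: Pou5f1, a pluripotency factor, was at 4.54 and 4.52 in Ts8 cells and 4.74 and 4.78 in WT cells, and 0 of 10 such markers were called. All 10 were below their WT mean (median difference -0.17), 6 of them with both Ts8 arrays below both WT arrays, where 24.4% of all genes were. Of 30 feeder fibroblast markers 0 were called and 5 were above their WT level, with a summed relative signal of 7.02 and 6.89 (log2) on the Ts8 arrays against 7.12 and 7.11 on the WT arrays. In such bulk samples fewer cells of a type and less RNA per cell cannot be told apart.

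Chromosome 8 genes were higher in Ts8 than in WT cells over the whole length of the chromosome and for most genes, by a small amount per gene. Their mean shift, taken against 15 autosomes that no line carries in 3 copies, was 0.25 and 0.26 on the Ts8 arrays, against values between -0.03 and 0.01 on the other 8 arrays. The exact two-sided permutation test of 2 arrays against 8 returned p = 0.022, and no split among the 45 can return less. Against the 2 WT arrays alone p was 0.333, the smallest that 6 splits allow. The genes called higher numbered 143, or 9.55% of the members, where 2.06% of all genes and 1.64% of the genes elsewhere were called higher. Only 2 were called lower, against 1.43% of all genes.

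The 143 genes called higher included 88 with an ordinary gene symbol, 31 long intergenic noncoding RNAs (lincRNAs) and 24 with predicted or clone names. Their differences ran between 0.48 and 3.03 with a median of 0.93, and 127 of them exceeded log2(3/2), the value that 3 copies against 2 would give (0.58). The 3.03 is a fitted value of Enpp6, for which no WT array rose above background, as for 5 of the 143 in all. Of the 17 genes tested only because of the Ts8 arrays 4 were called higher. Of the 1444 above background on both Ts8 and both WT arrays 137 were. In simulated data 12% of genes changed by 0.58 were recovered, 60% of those changed by 1 and 90% of those changed by 2. Only 50 genes were changed at each size there, where 984 genes were called in the real data. Fewer changed genes make the adjusted threshold stricter, so recovery in the real data may be higher. The lowest called difference, 0.48, lay near the 75th percentile of all members (0.50), so the calls show the upper end of the chromosome's genes. Over all 1498 members the median difference was 0.26, against 0.03 for genes elsewhere, and 77.1% were above their WT mean, against 53.5% elsewhere. Both Ts8 arrays were above both WT arrays for 853 members (56.9%, against 31.1% of all genes and 29.6% elsewhere), and below both for 10.2% (against 25.2% elsewhere). The 10th and 90th percentiles of the members were -0.22 and 0.82, and the 25th and 75th were 0.03 and 0.50.

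**Figure D1:**
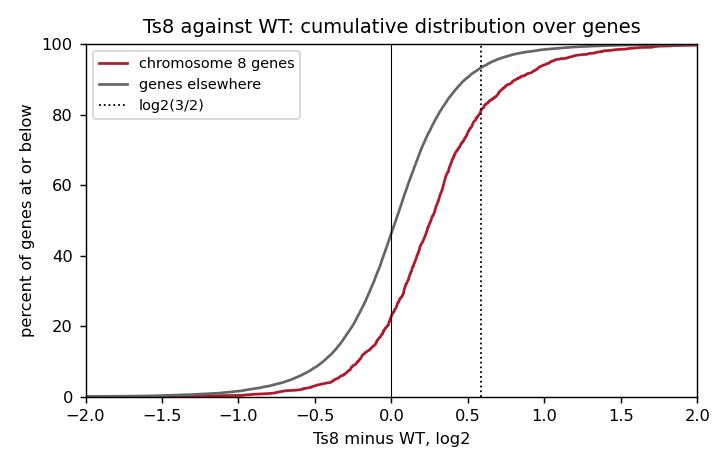
Cumulative percent of genes (y axis) at or below a given Ts8 minus WT difference (x axis, log2) for the 1498 chromosome 8 genes and the 26695 genes elsewhere, with log2(3/2) as a dotted line. The chromosome 8 curve lies to the right over most of its course, with medians of 0.26 and 0.03.

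Among called genes with an ordinary symbol and a WT level above background, most of the leading ones were dim in WT cells and several are known from the germ line. Terb1, whose protein ties telomeres to the nuclear envelope in meiosis, lies under the probe at chr8:106976602-106976661 and was at -3.54 and -2.11 in Ts8 cells, against -4.83 and -5.36 in WT cells. Both Ts8 values were above both WT values, though the Ts8 replicates were far apart, and the difference was 2.27 ± 0.45 (SE; adjusted p = 0.0436), a 4.82-fold change. Kctd19 (chr8:107908975-107909034), a regulator of meiotic progression in the mouse testis, was at -2.55 and -2.47 in Ts8 cells, against -4.69 and -4.17 in WT cells, with a difference of 1.92 ± 0.25 (SE; adjusted p = 0.0192). Kctd19 was no higher in Ts8 than in the mean of the other 3 trisomic lines (difference -0.19, adjusted p = 0.566).

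Ldhd, the mitochondrial D-lactate dehydrogenase, was at -3.31 and -3.14 in Ts8 cells, against -5.02 and -4.90 in WT cells, a difference of 1.73 ± 0.23 (SE; adjusted p = 0.0196). Tmed6, of a family of secretory cargo receptors, was at -3.44 and -3.24 in Ts8 cells, against -5.03 and -5.10 in WT cells (difference 1.72 ± 0.18 SE, adjusted p = 0.0121), and its second probe differed by 2.52. These genes were near the dim end of the array in WT cells, and the Ts8 values were more than 3 times as bright. Dusp26, a dual-specificity phosphatase, was at -0.20 and 0.54 in Ts8 cells, against -1.58 and -1.48 in WT cells, a difference of 1.70 ± 0.23 (SE; adjusted p = 0.0196). It was also higher than in the other trisomic lines, by 1.51 (adjusted p = 0.00363).

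A pair of immune regulators stood among the highest. Nlrc5, the transactivator of MHC class I genes, was at -1.32 and -0.52 in Ts8 cells, against -2.47 and -2.78 in WT cells (difference 1.70 ± 0.27 SE, adjusted p = 0.0275), while its second probe differed by 0.16, so its probes disagree on the size. Irf8, a transcription factor of the myeloid lineage, was at -1.70 and -1.42 in Ts8 cells, against -3.0 and -3.36 in WT cells (difference 1.62 ± 0.23 SE, adjusted p = 0.0228). Their groups did not overlap, and both were also higher than in the other trisomic lines, by 1.45 and 1.21 (adjusted p = 0.00792 and 0.00892).

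Tex15, needed for meiotic recombination and for piRNA-directed silencing in male germ cells, was at -0.85 and -0.44 in Ts8 cells, against -2.36 and -1.83 in WT cells (difference 1.45 ± 0.25 SE, adjusted p = 0.0322). Kcnu1, the potassium channel of sperm, was at -3.12 and -3.04 in Ts8 cells, against -4.19 and -4.28 in WT cells (difference 1.15 ± 0.19 SE, adjusted p = 0.0296). Got1l1, a relative of the cytosolic aspartate transaminase, was at -0.40 and -0.19 in Ts8 cells, against -1.52 and -1.94 in WT cells (difference 1.44 ± 0.22 SE, adjusted p = 0.0263). Against the other trisomic lines these 3 were not called, with differences of 0.41, 0.29 and 0.34. Drc7 and Ccdc113, which serve cilia and flagella, differed by 1.33 ± 0.21 (SE; adjusted p = 0.0263) and 1.30 ± 0.13 (SE; adjusted p = 0.0121) and lie within the same window of the chromosome.

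Cdh3, the cell adhesion molecule P-cadherin, was at 0.96 and 0.91 in Ts8 cells, against -0.30 and -0.19 in WT cells. All 4 values of Cdh3 lie near the upper quartile of the array, and the groups were more than 1 log2 unit apart (difference 1.18 ± 0.15 SE, adjusted p = 0.0192). Its neighbour Cdh1, the E-cadherin of ES cells, was at 2.87 and 2.92 in Ts8 cells, against 2.53 and 2.49 in WT cells, which was not called (difference 0.39 ± 0.12 SE, adjusted p = 0.11). Pgbd5, derived from a piggyBac transposase, and Adprhl1, a relative of ADP-ribosyl hydrolases, differed by 1.16 ± 0.17 (SE; adjusted p = 0.0245) and 1.58 ± 0.27 (SE; adjusted p = 0.0314). Of all 143 genes 121 were called higher against the other trisomic lines as well, where 28.7% of all chromosome 8 genes and 8.17% of all genes were. Both comparisons use the same Ts8 arrays, so this overlap is no separate support. In 2 of the remaining 22 (Kctd19 and Herpud1) the value was lower in Ts8 than in those lines.

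**Figure D2:**
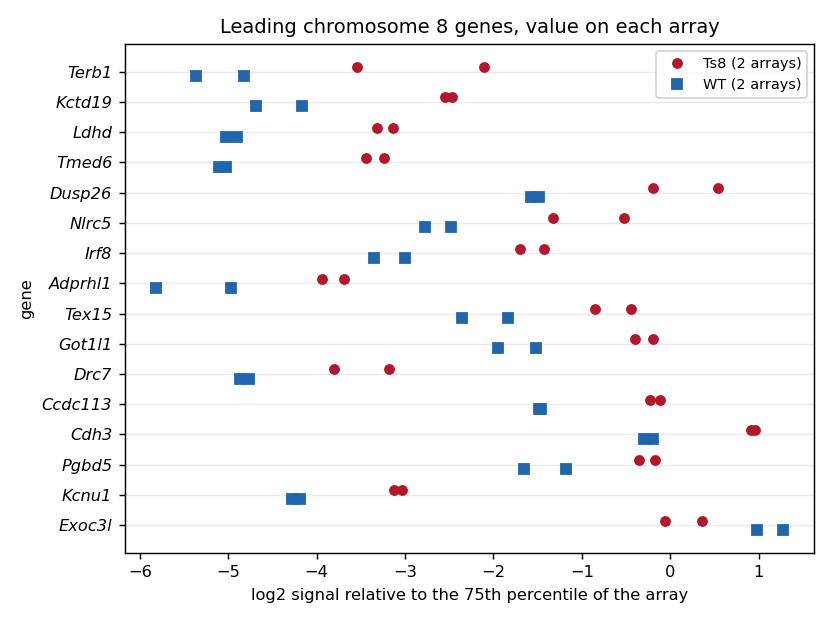
Relative log2 signal (x axis) of the 15 chromosome 8 genes with the highest called differences among those with an ordinary symbol and a WT level above background, and of Exoc3l, 2 Ts8 arrays as circles and 2 WT arrays as squares. In the upper 15 rows both circles lie right of both squares, and in the Exoc3l row both lie left.

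Exoc3l, a relative of an exocyst subunit, was the only named member called lower. It was at 0.36 and -0.06 in Ts8 cells, against 0.99 and 1.28 in WT cells, a difference of -0.98 ± 0.18 (SE; adjusted p = 0.0393). Its Ts8 level was close to the mean of the other trisomic lines (difference 0.02, adjusted p = 0.95), but those lines were unlike each other. Exoc3l was at -0.52 and -0.35 in Ts6, -0.30 and -0.42 in Ts11 and 1.34 and 1.04 in Ts15. It lies between Terb1 and Kctd19, which were among the highest. The other gene called lower was a lincRNA with its probe at chr8:10900082-10900141, at -2.92 and -3.04 in Ts8 cells, against -2.27 and -2.26 in WT cells (difference -0.72 ± 0.11 SE, adjusted p = 0.0251).

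For 3 named members no WT array rose above background, so only a lower bound of the fold can be given, set against the dimmest signal that still counted as above background. Fa2h, which hydroxylates fatty acids of sphingolipids, was at least 3.67-fold higher (-5.16 and -4.39 in Ts8 cells, against -6.66 and -6.91 in WT cells; adjusted p = 0.0292). Fam90a1a, of a multicopy gene family, was at least 2.87-fold higher (-5.10 and -5.27 in Ts8 cells, against -6.84 and -6.60 in WT cells; adjusted p = 0.0121). Enpp6, a choline-specific phosphodiesterase, was at least 1.78-fold higher (-6.72 and -5.06 in Ts8 cells, against -9.0 and -8.85 in WT cells; adjusted p = 0.0265), and its Ts8 arrays were far apart. Ts8 replicate 1 was near the dimmest WT signals above background (-6.81 and -6.64), so this bound rests on replicate 2. Enpp6 was tested only because both Ts8 arrays were above background, so its adjusted p is no separate support. In these 3 genes every Ts8 array was above background.

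The brightest decile of members had the smallest shift. The 10 brightest named genes of the chromosome, among them Rpl13 of the ribosome, Cox4i1 of the respiratory chain and the metallothionein Mt2, had differences between -0.29 (Cox4i1) and 0.27 (Nutf2), and 0 of 10 were called. Other probes of some of these genes differed by more, up to 0.88 for Nutf2, 0.52 for Ogfod1 and 0.48 for Marchf1. Cox4i1 was at 4.76 and 4.74 in Ts8 cells, against 5.32 and 4.76 in WT cells, and Rpl13 at 5.14 and 5.00 in Ts8 cells, against 5.00 and 4.98 in WT cells. The shift was set against level over all members by deciles of mean signal, each beside genes of equal brightness on those 15 autosomes. Chromosome 8 genes of the sixth decile were shifted by 0.39 ± 0.04 above such genes (SD, n = 2 arrays), those of the dimmest decile by 0.17 ± 0.02 and those of the brightest by 0.13 ± 0.004. In every decile both Ts8 arrays were above the other 8 arrays. Of the 150 genes in the brightest decile 66.0% were above WT, against 87.3% of the decile below it. No spot of any array was saturated, but a compression of bright signals by the array was not tested.

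**Figure D3:**
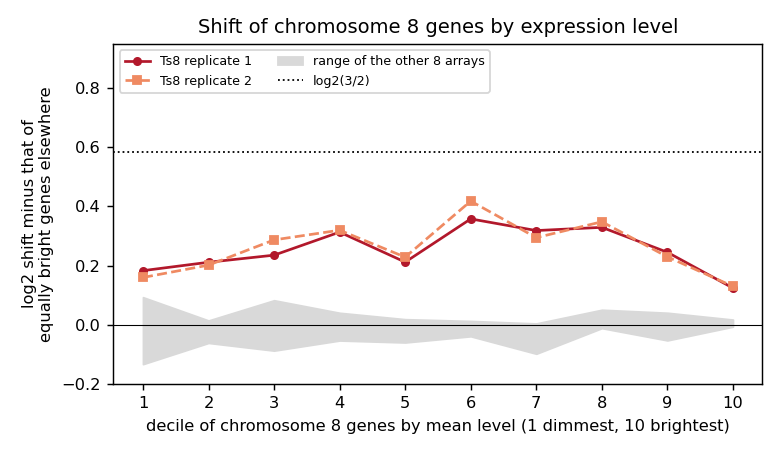
Shift of chromosome 8 genes minus that of equally bright genes on other autosomes (y axis, log2) by decile of mean level (x axis, 1 dimmest), for each Ts8 array, with the range of the other 8 arrays in grey. The Ts8 lines peak in the sixth decile at 0.36 and 0.42 and are lowest in the tenth at 0.12 and 0.13.

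Along the chromosome the shift was present everywhere. In 14 of 14 windows of 10 Mb both Ts8 arrays were above all 8 other arrays, which in each window is the smallest exact permutation p of 0.022. The lowest shift was 0.19 ± 0.008 (SD, n = 2 arrays) over the 51 genes of the first 10 Mb, and the highest was 0.33 ± 0.03 over the 125 genes at 10 to 20 Mb. The windows at 40 to 50 Mb (0.32 ± 0.04, 111 genes) and 90 to 100 Mb (0.31 ± 0.004, 122 genes) came next, and the remaining windows lay between 0.20 and 0.26. Across the 14 windows the Ts8 replicates had a correlation of 0.81, as a description of points that share genes and arrays. Across genes the difference had no trend with position (Spearman's rho -0.003 over 1498 genes, as a description). The last window held 13 genes.

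**Figure D4:**
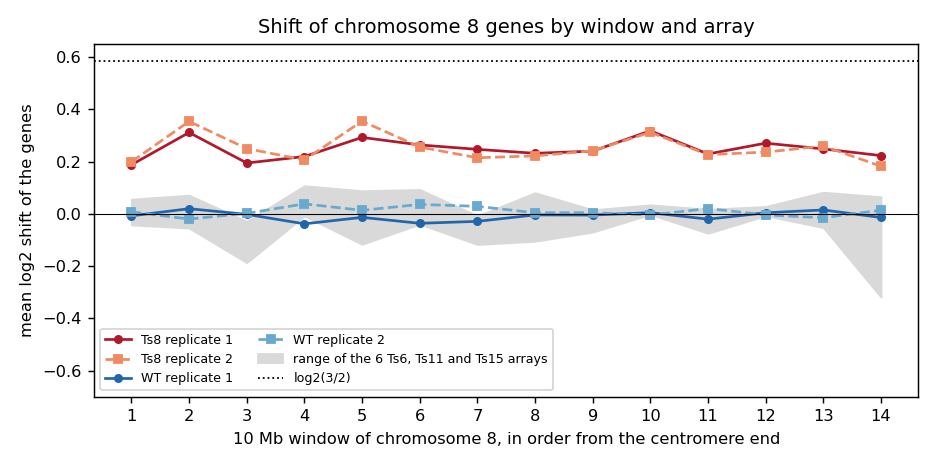
Mean log2 shift (y axis) of the genes in each 10 Mb window of chromosome 8 (x axis, in order from the centromere end) on the 2 Ts8 and 2 WT arrays, with the range of the 6 arrays of the other lines in grey. The Ts8 lines lie between 0.18 and 0.35 in all 14 windows, above every other array and below log2(3/2).

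Each window is next described by the gene with the largest called difference among those with an ordinary symbol and a WT level above background, which leaves out lincRNAs and Enpp6, Fa2h and Fam90a1a. In the first window this was Lig4, the DNA ligase of end joining, at -2.09 and -1.99 in Ts8 cells, against -3.07 and -2.60 in WT cells (difference 0.79 ± 0.16 SE, adjusted p = 0.0464). Adprhl1 and Got1l1, above, led the windows at 10 to 20 and 20 to 30 Mb and Dusp26 that at 30 to 40 Mb. Triml1, of the TRIM family and known from the mouse embryo before implantation, led the next at 2.87 and 3.21 in Ts8 cells, against 1.98 and 1.81 in WT cells (difference 1.14 ± 0.18 SE, adjusted p = 0.0263). It was the brightest of these leaders after Hmox1, and its groups did not overlap.

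Hpgd, which breaks down prostaglandins, led the sixth window at -3.03 and -2.73 in Ts8 cells, against -4.15 and -3.75 in WT cells (difference 1.07 ± 0.17 SE, adjusted p = 0.0287), and Anxa10, an annexin, the seventh at -2.64 and -2.38 in Ts8 cells, against -3.60 and -3.20 in WT cells (difference 0.89 ± 0.17 SE, adjusted p = 0.0409). Hmox1, the inducible haem oxygenase, led the eighth at 3.40 and 3.67 in Ts8 cells, against 2.59 and 2.39 in WT cells. Its difference was 1.04 ± 0.13 (SE; adjusted p = 0.0177), with a second probe at 1.43, and it was also higher than in the other trisomic lines, by 0.47 (adjusted p = 0.0303). Phkb, a subunit of phosphorylase kinase, led the ninth at 0.28 and 0.59 in Ts8 cells, against -0.32 and -0.65 in WT cells (difference 0.92 ± 0.18 SE, adjusted p = 0.0431), and Nlrc5, Terb1, Ldhd and Irf8 led the tenth to the thirteenth. No gene was called in the last window. Among the genes left out, Enpp6 shares its window with Triml1, Fa2h with Ldhd and Fam90a1a with Got1l1.

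Called genes also lay side by side in places, and some of these share probe letters. In the interval between Triml1 and Triml2 the files list lincRNAs on both strands, and 3 of their probes overlap within chr8:44250331-44250449. The probes are shown since their overlap bears on how many separate measurements there are. Letters shared with another probe of the group, on either strand, are in capitals.
lincRNA probe 1, chr8:44250331-44250390: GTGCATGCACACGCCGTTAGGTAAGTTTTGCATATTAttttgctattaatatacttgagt
lincRNA probe 2, chr8:44250354-44250413: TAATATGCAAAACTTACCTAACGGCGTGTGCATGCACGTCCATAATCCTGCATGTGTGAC
lincRNA probe 3, chr8:44250390-44250449: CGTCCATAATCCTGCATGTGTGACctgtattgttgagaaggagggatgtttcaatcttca
Probe 1 was at -3.67 and -3.35 in Ts8 cells, against -4.87 and -5.09 in WT cells (difference 1.46 ± 0.15 SE, adjusted p = 0.0121). Probe 2, on the opposite strand, was at -1.02 and -0.59 in Ts8 cells, against -1.99 and -2.38 in WT cells (difference 1.38 ± 0.21 SE, adjusted p = 0.0258), and probe 3 was at 0.30 and 0.66 in Ts8 cells, against -1.01 and -1.25 in WT cells (difference 1.61 ± 0.19 SE, adjusted p = 0.0159). All 3 were higher in Ts8 cells with no overlap of the groups, and 60 of the 60 bases of probe 2 are covered by its neighbours. Triml2 itself, beyond them, was at 3.06 and 3.33 in Ts8 cells, against 2.64 and 2.59 in WT cells and was not called (difference 0.58 ± 0.14 SE, adjusted p = 0.0689). Zfp42 (Rex1), a marker of naive ES cells beyond Triml2, was at 4.21 and 4.08 in Ts8 cells, against 4.02 and 4.04 in WT cells (difference 0.12 ± 0.10 SE, adjusted p = 0.497).

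A pair of lincRNA entries near Kctd19, both called, rests on probes that differ by a 2-base step, with 58 of 60 bases in common (capitals).
lincRNA probe 4, chr8:108153618-108153677: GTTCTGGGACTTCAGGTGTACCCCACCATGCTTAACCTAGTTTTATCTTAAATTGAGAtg
lincRNA probe 5, chr8:108153620-108153679: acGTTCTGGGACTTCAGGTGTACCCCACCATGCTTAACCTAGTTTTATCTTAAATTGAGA
Probe 4 was at -1.30 and -0.39 in Ts8 cells, against -2.44 and -2.30 in WT cells, and probe 5 at -1.33 and -0.52 in Ts8 cells, against -2.48 and -2.38 in WT cells. Their differences of 1.52 and 1.50 come from probes that share nearly all their letters, so they are not separate measurements. The stretch chr8:19682300-20020711, chosen after its values were seen, held 23 genes, 13 of them lincRNAs, of which 9 were called higher and 0 lower, beside 9.55% called higher over the chromosome. Nothing is read from this count. Here no pair of probes shared 15 bases, the 9 differences ran between 0.79 and 1.83, and 20 of 23 were above WT.

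The 271 lincRNAs of the chromosome had a median difference of 0.33, and the 1227 other members one of 0.24. Of the lincRNAs 31 were called higher (11.4%) and 1 lower, and of the other members 112 higher (9.13%) and 1 lower. The lincRNA with the largest called difference, in the stretch above with its probe at chr8:19759511-19759570, was not above background on either WT array and was at least 2.55-fold higher in Ts8 cells. Another, at chr8:72077856-72077915, was likewise at least 2.13-fold higher (adjusted p = 0.0382). Neither probe was above background on both arrays of any group but Ts8. They were tested only through the Ts8 arrays, so their calls are no separate support.

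Members were next read by role, in 13 lists with 243 genes tested, 32 of them called higher and 0 lower, beside 9.55% called higher among all chromosome 8 genes and 2.06% among all genes. The median difference of each list is set beside the 0.26 of all chromosome 8 genes and the 0.04 of all genes tested. The lists describe these genes and were not tested as sets.

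Of 22 genes of DNA replication and the cell cycle 1 was called, with a median of 0.33. Cenpn, which binds the centromeric nucleosome, was at 1.34 and 1.48 in Ts8 cells, against 0.84 and 0.56 in WT cells (difference 0.71 ± 0.14 SE, adjusted p = 0.0436). Orc6 of the origin complex (0.53), the Mcm5 helicase subunit (0.33) and Gins2 (0.36) had positive differences that were not called, and Gins3 was at -0.18. Nek1, a kinase of cilia and DNA repair, was lower than in the other trisomic lines (-0.34, adjusted p = 0.0487), and its difference from WT of -0.45 was not called. Of 15 repair and telomere genes 3 were called, the ligase Lig4, the polymerase Polb (difference 0.66 ± 0.14 SE, adjusted p = 0.0476) and the glycosylase Neil3 (difference 0.66 ± 0.12 SE, adjusted p = 0.0337), with a list median of 0.33. Wrn and Tnks, with 0.42 and 0.82, were not.

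Chromatin genes had a median of 0.37, and 2 of 19 were called. Smarca5, the ISWI remodelling ATPase, was at 2.57 and 2.72 in Ts8 cells, against 1.92 and 1.98 in WT cells (difference 0.69 ± 0.11 SE, adjusted p = 0.0259), and Nsd3, a histone H3 methyltransferase, at -0.10 and 0.07 in Ts8 cells, against -0.61 and -0.89 in WT cells (difference 0.74 ± 0.13 SE, adjusted p = 0.0356). For neither gene did the groups overlap. Ctcf, which binds insulators, was at 2.46 and 2.49 in Ts8 cells, against 2.03 and 2.07 in WT cells, just outside the threshold (difference 0.43 ± 0.09 SE, adjusted p = 0.0534), and Kat6a and Ash2l differed by 0.59 and 0.42 without a call.

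Transcription factors had the lowest list median, 0.15, and 4 of 37 were called: Irf8, Hsf4 (difference 0.97 ± 0.17 SE, adjusted p = 0.0322), Nfatc3 (difference 0.48 ± 0.10 SE, adjusted p = 0.0483) and Cbfb (difference 0.48 ± 0.10 SE, adjusted p = 0.0461). Against the other trisomic lines 10 of 37 were called higher, where 28.7% of all chromosome 8 genes were. The list median in that comparison was 0.38, beside 0.30 for all chromosome 8 genes. Klf2, a naive pluripotency factor, was at 3.17 and 2.94 in Ts8 cells, against 3.04 and 3.24 in WT cells, with groups that overlap. Tox3 and Sall1 were not called against WT (0.05 and 0.26) and were higher than in the other trisomic lines, by 1.27 and 0.86 (adjusted p = 0.00086 and 0.00119). The developmental factors Foxf1 and Foxc2 were dim, with differences of -0.19 and -0.24 that were not called.

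Among 31 signalling genes 5 were called higher (median 0.29). Pdgfrl, a soluble relative of PDGF receptors, was at 1.45 and 1.42 in Ts8 cells, against 0.48 and 0.32 in WT cells (difference 1.03 ± 0.13 SE, adjusted p = 0.0165), and Gas6, the ligand of TAM receptors, at 1.20 and 1.34 in Ts8 cells, against 0.51 and 0.60 in WT cells (difference 0.72 ± 0.14 SE, adjusted p = 0.0436). Dusp26, the ligand Gdf1 (0.62) and the phospholipase Plcg2 (0.51) were the other 3. The receptor Fgfr1 (0.04) and the adaptor Irs2 (-0.06) were not called, and the adaptor Gab1 missed the threshold at 0.84 ± 0.18 (SE; adjusted p = 0.0508). Of 15 adhesion and matrix genes, with a median of 0.24, Cdh3 alone was called, and the collagens Col4a1 and Col4a2 were at -0.03 and -0.10.

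Of 18 stress and chaperone genes 2 were called (median 0.31), Hmox1 and Herpud1, a part of the endoplasmic reticulum degradation machinery. Herpud1 was at 1.41 and 1.43 in Ts8 cells, against 0.57 and 0.42 in WT cells (difference 0.93 ± 0.12 SE, adjusted p = 0.0192), and in the other trisomic lines it was no lower (Ts8 minus those lines -0.26, adjusted p = 0.124). The metallothioneins Mt1 and Mt2 (0.00 and 0.01), the chaperone Calr (0.03) and the peroxidase Prdx2 (0.08) were not called. Of 19 ubiquitin genes (median 0.35) the deubiquitinases Usp38 (difference 0.88 ± 0.11 SE, adjusted p = 0.0177) and Otud4 (difference 0.60 ± 0.11 SE, adjusted p = 0.0376) and the ligase subunit Fbxo8 (difference 0.73 ± 0.14 SE, adjusted p = 0.0434) were called.

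Of 20 mitochondrial genes only Ldhd was called (median 0.25), with Ndufb7 at 0.09 and Slc25a4 at -0.10. Of 24 translation and RNA genes only the helicase Ddx19b was called (difference 1.08 ± 0.17 SE, adjusted p = 0.0263; median 0.28), with the tRNA synthetases Kars and Aars at -0.07 and 0.35. Ddx19b has a near-identical neighbour, Ddx19a (0.38, not called), which its probe might also read. Of 15 lysosome and autophagy genes the chloride transporter Clcn3 (0.58) and the retromer subunit Vps35 (0.58) were called (median 0.37), and of 14 lipid genes Fa2h and Hpgd (median 0.30). The sterol enzymes Msmo1 and Mvd had differences of -0.19 and -0.59 that were not called.

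Germ line genes of the chromosome had the highest list median, 0.55, with 5 of 15 called: Terb1, Kctd19, Tex15, Triml1 and Adad2 (difference 0.95 ± 0.16 SE, adjusted p = 0.0324), a relative of RNA deaminases. Triml1, which the list counts though it is also known from the embryo before implantation, was bright in WT cells (1.98 and 1.81). The sperm surface genes of the Adam family were dim, and 0 of 7 were called. Syce2 of the synaptonemal complex was at 3.76 and 3.77 in Ts8 cells, against 3.31 and 3.09 in WT cells, bright in both lines, and missed the threshold (difference 0.57 ± 0.13 SE, adjusted p = 0.0527).

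Genes elsewhere were called in both directions. Of 26695 genes 437 were called higher (1.64%) and 402 lower (1.51%), 176 and 154 of them by at least 2-fold. The split depends on the scaling: with arrays centred on their median it was 294 higher and 617 lower. Against the mean of the other 3 trisomic lines the chromosome 8 genes gave 430 called higher (28.7%, where 8.17% of all genes and 7.02% of those elsewhere were) and 14 lower (0.935%, where 4.75% of all genes and 4.96% of those elsewhere were). Of those 430, 411 were above their WT mean. Elsewhere 1874 genes were higher and 1324 lower in that comparison, and 1312 and 2301 after median centring, 1394 and 1560 after quantile normalization, and 1379 and 1608 in the deposited series table. The comparisons with WT and with the other lines share the Ts8 arrays: 241 of the 437 higher genes and 219 of the 402 lower ones were called the same way in both.

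Meiob, which binds single-stranded DNA in meiotic recombination (chr17:24976585-24976644), had the highest difference of all named genes elsewhere. It was at -2.13 and -2.44 in Ts8 cells, against -4.44 and -5.64 in WT cells, a 6.75-fold difference of 2.75 ± 0.34 (SE; adjusted p = 0.0177), but it was not called against the other trisomic lines (0.44, adjusted p = 0.322). Ninj2, an adhesion molecule, was at -1.30 and -1.03 in Ts8 cells, against -3.04 and -3.38 in WT cells (difference 2.05 ± 0.16 SE, adjusted p = 0.00582), though its second probe differed by 0.22. Spz1, a transcription factor of the testis, was at -3.57 and -2.79 in Ts8 cells, against -4.88 and -5.17 in WT cells (difference 1.85 ± 0.27 SE, adjusted p = 0.0233), and stood further from the other trisomic lines (2.34, adjusted p = 0.00122).

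Defb25, a beta-defensin, was at -0.01 and 0.07 in Ts8 cells, against -1.46 and -1.94 in WT cells (difference 1.73 ± 0.18 SE, adjusted p = 0.0121), and Rspo4, a secreted activator of Wnt signalling, at -3.51 and -3.03 in Ts8 cells, against -4.61 and -5.86 in WT cells (difference 1.97 ± 0.36 SE, adjusted p = 0.0377). Defb25 was the brightest of the 10 highest genes in both groups. Slc13a3, a carrier of dicarboxylates, Aqp6, an aquaporin, Tarm1, a leukocyte receptor, and Ccdc33 differed by 1.93, 1.80, 1.96 and 1.70 (adjusted p = 0.0201, 0.0346, 0.0277 and 0.0301). Another probe of Aqp6 differed by 0.51. Ms4a15, above background on 1 of 2 WT arrays, differed by 2.30 ± 0.30 (SE; adjusted p = 0.0192). Slc28a3, Nectin4 and Olfr1148 had no WT array above background, and their Ts8 levels exceeded that limit by at least 2.87, 2.81 and 2.46 times.

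The largest difference in the other direction was that of Gkn2, a gastrokine of the stomach mucosa, at -6.18 and -5.34 in Ts8 cells, against -0.64 and -1.75 in WT cells (difference -4.56 ± 0.61 SE, adjusted p = 0.0196). It did not differ by a called amount from the other trisomic lines (-1.36, adjusted p = 0.114). The Y-linked genes Ddx3y and Eif2s3y were lower, with differences of -4.11 and -3.81 (adjusted p = 0.00095 and 0.00051), and Uty, below background in Ts8 cells, was lower by at least 2.52-fold. Eif2s3y was at -3.08 and -2.99 in Ts8 cells and 0.84 and 0.70 in WT cells. It was at -8.18 and -8.14 in Ts6, -8.78 and -8.21 in Ts11 and 0.85 and 0.77 in Ts15. Ddx3y was likewise below Ts8 in Ts6 and Ts11 and near WT in Ts15. Ddx3y and Eif2s3y were called higher in Ts8 than in the mean of the other lines, by fitted values of 0.98 and 2.25 (adjusted p = 0.0164 and 0.00043). Zfy1, Zfy2 and Sry, the other 3 of 6 Y-linked genes tested, were not called. The labels do not give the sex of the Ts8 line.

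Other genes were also among the lowest. Gjb5, a connexin of trophoblast and skin, was at -6.70 and -8.23 in Ts8 cells, against -5.06 and -4.31 in WT cells (difference -2.78 ± 0.46 SE, adjusted p = 0.0296), above background on 1 of 2 Ts8 arrays. Wnt8a, a Wnt ligand of the primitive streak, was at -3.31 and -4.15 in Ts8 cells, against -1.36 and -1.51 in WT cells (difference -2.30 ± 0.27 SE, adjusted p = 0.0164). It was also below the mean of the other trisomic lines (difference -1.32, adjusted p = 0.0118). That mean is raised by Ts15 (-0.64 and -0.42), since Wnt8a was at -3.40 and -3.50 in Ts6 and -3.03 and -3.51 in Ts11. For both genes the Ts8 and WT values did not overlap. Tlx2, a homeobox factor, Neurog3, the factor of endocrine progenitors, Chst3, a chondroitin sulfotransferase, Rassf9 and the death receptor gene Tnfrsf25 differed by -2.14, -2.10, -2.08, -2.74 and -2.04 (adjusted p = 0.0263, 0.0233, 0.0165, 0.0263 and 0.0487). Rassf9 was above background on 1 of 2 Ts8 arrays. Mucl3 and Nlrp9b, below background in Ts8 cells, were lower by at least 2.78-fold and 2.43-fold.

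The list of germ line, piRNA and meiosis genes outside chromosome 8 had 11 of 35 members called higher and 0 lower, where 2.06% of all genes were called higher, with a median difference of 0.68 beside 0.04 over all genes. Tdrd1 and Tdrkh, Tudor proteins of the piRNA pathway, differed by 1.30 ± 0.12 (SE; adjusted p = 0.0121) and 1.69 ± 0.23 (SE; adjusted p = 0.0196). Tdrd1 was at -4.37 and -4.20 in Ts8 cells, against -5.53 and -5.64 in WT cells, and Tdrkh at -2.39 and -1.82 in Ts8 cells, against -3.63 and -3.96 in WT cells, so both were dim in WT cells and clear of them in Ts8 cells. Smc1b, the meiotic cohesin subunit, and Mei1, needed for meiotic double-strand breaks, differed by 1.48 ± 0.22 (SE; adjusted p = 0.0247) and 1.47 ± 0.16 (SE; adjusted p = 0.0127). Ddx4 (Vasa), the helicase of germ cells, was at -0.75 and -0.37 in Ts8 cells, against -1.25 and -1.35 in WT cells (difference 0.74 ± 0.15 SE, adjusted p = 0.0436), and the others called were Meiob, Tex101, Piwil2, Sycp3, Tex11 and Meioc. Dazl, Stra8 and Mael, other genes of early germ cells, were at -0.06, -0.12 and 0.09 and were not called. Against the other trisomic lines the list had 6 called higher and 4 lower (Asz1, Brdt, Terb2 and Hormad2) and a median of 0.22. In that comparison 8.17% of all genes were called higher and 4.75% lower. Without Ts8 replicate 2 the count against WT was 0, without Ts8 replicate 1 it was 16, and without WT replicate 2 it was 3.

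Promoters were searched for the letters CACGTG (an E-box) and GGCGGGA (an E2F-like stretch) on both strands, within 250 bases before to 50 after the start (RefSeq, GRCm38.p6). Of the 16 called germ line members on chromosome 8 and elsewhere 11 had a promoter entry, and Tdrd1 had 3. CACGTG was in 5 of 13 promoters of called members (38.46%), in 18 of 39 promoters of the germ line members tested (46.15%) and in 7.15% of all 32851 promoters. Entries 1 and 2 of Tdrd1 overlap and hold the same match. Counted by gene it was in 4 of 11 called members, 15 of 34 tested members and 2187 of all 27025 genes. GGCGGGA was in 2 of 13, 7 of 39 and 11.34% of all. The following 4 promoters belong to called members on chromosome 8 and elsewhere, with the matches in capitals.
Terb1, chr8:104509838-104510137, minus strand: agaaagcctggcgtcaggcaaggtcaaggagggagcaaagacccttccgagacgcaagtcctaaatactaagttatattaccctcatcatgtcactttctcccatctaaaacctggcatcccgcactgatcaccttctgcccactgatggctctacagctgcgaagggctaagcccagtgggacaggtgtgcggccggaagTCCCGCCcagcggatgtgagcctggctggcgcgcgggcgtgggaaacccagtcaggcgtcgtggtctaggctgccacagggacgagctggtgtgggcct
Adad2, chr8:119612463-119612762, plus strand: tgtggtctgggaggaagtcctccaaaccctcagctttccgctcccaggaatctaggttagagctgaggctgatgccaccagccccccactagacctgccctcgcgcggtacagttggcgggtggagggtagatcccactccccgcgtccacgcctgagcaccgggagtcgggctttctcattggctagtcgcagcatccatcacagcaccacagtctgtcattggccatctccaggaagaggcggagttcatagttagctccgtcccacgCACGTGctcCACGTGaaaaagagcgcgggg
Ddx4, chr13:112652261-112652560, minus strand: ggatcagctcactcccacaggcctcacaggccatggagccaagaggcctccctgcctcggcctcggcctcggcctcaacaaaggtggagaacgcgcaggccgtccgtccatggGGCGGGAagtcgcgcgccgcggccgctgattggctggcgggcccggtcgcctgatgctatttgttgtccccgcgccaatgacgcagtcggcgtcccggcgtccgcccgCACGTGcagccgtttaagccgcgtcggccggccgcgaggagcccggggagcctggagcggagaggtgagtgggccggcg
Sycp3, chr10:88459337-88459636, plus strand: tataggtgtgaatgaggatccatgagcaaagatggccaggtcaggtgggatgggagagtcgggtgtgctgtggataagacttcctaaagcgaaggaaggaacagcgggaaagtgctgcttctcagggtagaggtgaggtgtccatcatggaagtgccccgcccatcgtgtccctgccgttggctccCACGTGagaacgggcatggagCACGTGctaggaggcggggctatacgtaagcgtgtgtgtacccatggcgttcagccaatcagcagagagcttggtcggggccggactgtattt
Terb1 holds the E2F-like letters, printed as their reverse complement, and no E-box, Adad2 and Sycp3 hold 2 E-box matches each, and Ddx4 holds both motifs. The differences were 2.27 for Terb1, 0.95 for Adad2, 0.74 for Ddx4 and 0.77 for Sycp3. A match is a description of the letters and no evidence of binding, and the called members Triml1, Tdrkh, Tex101, Smc1b, Meioc and Mei1 hold neither motif in this window.

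Among genes of other fates calls were mostly lower, where 1.43% of all genes were called lower and 2.06% higher against WT. In the trophectoderm list 0 of 21 were called higher and 3 lower, with a median of -0.52, among them Cdx2, the trophectoderm factor (difference -1.39 ± 0.28 SE, adjusted p = 0.0444), and Gjb5. Against the other trisomic lines 11 of 21 were called lower, where 4.75% of all genes were (median -0.73), among them Hand1 (-2.06), Tead4 (-1.29) and Tfap2c (-0.78). Gata3 was not called in the comparison with WT (0.09). Of 17 Wnt targets 4 were called lower (Wnt8a, T, Cdx2 and Sp5) and Rspo4 higher, with a median of -0.43. T (brachyury), the mesoderm factor, was at -3.11 and -4.04 in Ts8 cells, against -2.18 and -2.10 in WT cells (difference -1.44 ± 0.29 SE, adjusted p = 0.0461), and of 24 mesoderm and endoderm genes T and Evx1 were called lower (median -0.22).

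Of 26 naive pluripotency genes Tfcp2l1 was called lower (difference -0.64 ± 0.11 SE, adjusted p = 0.0348) and 0 higher, with a median of -0.08, and Nanog was at 4.91 and 4.81 in Ts8 cells, against 5.15 and 5.12 in WT cells (difference -0.28 ± 0.11 SE, adjusted p = 0.162). Of 18 genes of the LIF and Stat3 pathway 3 were called lower (1.43% of all genes were): the receptor Il6st (difference -0.50 ± 0.09 SE, adjusted p = 0.0376), the kinase Pim1 (difference -0.56 ± 0.11 SE, adjusted p = 0.0436) and Tfcp2l1. Among 19 primed epiblast genes Pim2 was called lower (difference -0.75 ± 0.14 SE, adjusted p = 0.0397; median -0.31). The 2-cell-like list had Dux, the factor that starts the zygotic programme, called higher (difference 1.09 ± 0.19 SE, adjusted p = 0.0336) and no other of its 18 members. Against the other trisomic lines 13 of the 18 were called higher and 2 lower, where 8.17% of all genes were called higher and 4.75% lower, with a median of 1.07. The summed relative signal of the list (log2) was 5.73 and 5.69 in Ts8 cells, 4.54 and 4.54 in Ts6, 4.86 and 4.95 in Ts11, 5.38 and 5.33 in Ts15 and 5.44 and 5.44 in WT cells, so Ts6 and Ts11 were lowest and Ts15 was near WT. Zscan4c was at 2.94 and 2.73 in Ts8 cells, against 2.67 and 2.51 in WT cells, and above those lines by 1.37 (adjusted p = 0.00084). The Zscan4 and Usp17l genes are near-identical copies whose probes may read each other.

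The lists that follow stand beside 1.43% of all genes called lower and 2.06% called higher. In the interferon and antigen list 2 of 24 were called lower, the immunoproteasome subunit Psmb8 (difference -1.46 ± 0.29 SE, adjusted p = 0.0444) and the GTPase Gbp2 (difference -1.16 ± 0.19 SE, adjusted p = 0.0296), with a median of -0.24. Of 26 imprinted genes Cdkn1c was called higher (difference 0.67 ± 0.13 SE, adjusted p = 0.0409), and H19 (-0.84), Peg10 (-0.84) and Peg12 (-1.37) lower. Of 22 p53 targets 0 were called, with a median of 0.31, as were 0 of 29 genes of the unfolded protein and amino acid response (median 0.10), 0 of 44 proteasome and chaperone genes (-0.09) and 0 of 35 replication genes (0.06). Chac1, of the amino acid response, was lower than in the other trisomic lines (difference -1.38, adjusted p = 0.00119), and its difference from WT of -0.37 was not called.

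**Figure D5:**
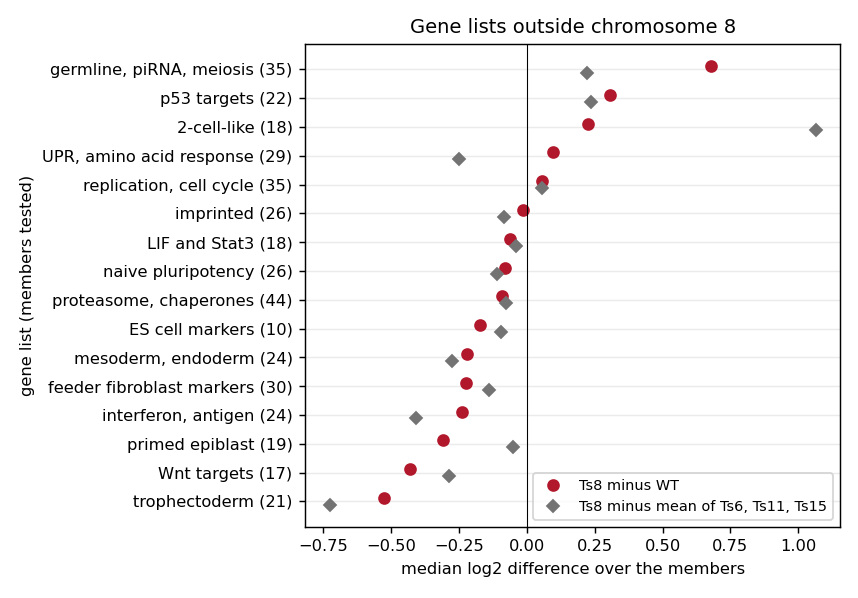
Median log2 difference over the members (x axis) of 16 gene lists outside chromosome 8 (rows, with the number of members tested), as circles for Ts8 minus WT and diamonds for Ts8 minus the mean of Ts6, Ts11 and Ts15. The germ line list is highest against WT (0.68), the 2-cell-like list against the other lines (1.07), and the trophectoderm list is lowest in both (-0.52 and -0.73).

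These calls rest on 2 arrays a group and on the passages sampled. With passage as a covariate 0 chromosome 8 genes and 6 genes elsewhere were called against WT, and without Ts8 replicate 2 the counts were 0 and 13. The chromosome 8 shift was 0.25 without Ts8 replicate 2 and 0.26 without Ts8 replicate 1. The shift was not adjusted for passage.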

How the data were processed

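RNA of 10 samples was hybridised to 1-colour Agilent mouse arrays. The deposited intensity values are the scanner software's processed signals (Feature Extraction, Agilent, version 10.7.3.1), and probes are placed on mm9, per the file headers. The deposited series table holds log2 values whose scaling between arrays is not given in the sources used here, and served as an alternative. From the intensities log2 signal minus the array's 75th percentile over noncontrol spots was taken. Of 55681 probes 176 with outlier flags were left out, and 43056 that were well above background on both arrays of a group were kept. The probe with the highest mean stood for its gene, which gave 28193 genes. Of 293 called genes with several probes 16.0% had a probe of the opposite sign. Of 28390 probes with a RefSeq accession 26762 were named through the RefSeq table.

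limma 3.58.1 (R 4.3.3) fitted 1 mean per group over 10 arrays, with 5 residual degrees of freedom, and all tests were two-sided. No label says that replicates are separate cultures, so p-values measure the spread between these samples. On simulated data with 28193 genes 9 unchanged genes were called. The fit did not pair same-numbered replicates. The correlations of their deviations ran between -0.10 and 0.39, the highest being that of Ts8 with Ts11. Replicate 1 of each group was in row 1 of its slide and replicate 2 in row 2, so replicate and row cannot be told apart. WT, Ts6, Ts8 and Ts11 filled columns 1 to 4 of slide 1, and Ts15 was on slide 2.

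Chromosome 8 genes, gene lists and the naming rule were chosen with earlier results of these data known. Named were, with ordinary symbols, groups that do not overlap and at least 1 array above background in Ts8 and in WT, the 15 highest and 10 lowest called genes on chromosome 8, 1 gene per window, the 10 highest and 10 lowest elsewhere, 3 bounds each way for genes with no array of a group above background, the 10 brightest members, the 3 highest lincRNAs and up to 6 called members per list. A few genes that this rule names are not reported here. Alternatives were quantile, median and normexp scaling, the series table, 2 other filters, probe means, slide 1 alone, WT and Ts8 alone, a replicate block, passage as a covariate and each array left out. Python 3.11.15 with pandas 2.3.3, numpy 2.4.6, scipy 1.17.1 and matplotlib 3.10.9 made tables and figures.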

Additional observations from a re-analysis of the deposited data

Results flagged for a closer look

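The chromosome 8 shift and the highest and lowest named genes and bounds were searched for differences from WT that differed from those of the other trisomic lines by a test and, for genes, had the opposite sign, and 4 results met this. The chromosome 8 shift of the Ts8 arrays exceeded that of the other 8 arrays by 0.26 (exact permutation p = 0.022). Cdh3, on chromosome 8, was 1.18 above WT in Ts8 cells and -0.21 from WT in the mean of the other lines, a difference between them of 1.40 (limma, adjusted p = 0.00111). Fam90a1a, also on chromosome 8, was 1.54 from WT in Ts8 cells and -0.78 in the other lines, a difference of 2.31 (limma, adjusted p = 0.00040). No WT array was above background for this gene, so these are fitted values, and no direction is read from the other lines. Spz1, on chromosome 13, was 1.85 above WT in Ts8 cells and -0.49 in the other lines, a difference of 2.34 (limma, adjusted p = 0.00122). Over these 3 genes the adjusted p against WT ran between 0.0026 and 0.175 over the alternatives.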

How the results depend on the processing

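The chromosome 8 shift was between 0.218 and 0.263 under every alternative, and both Ts8 arrays were above the other arrays in 14 of 14 windows. The windows and the shift come from array values relative to WT, and not from the fit. A passage covariate, a replicate block, median centring or fewer arrays of other lines therefore could not alter the shift. Its exact permutation p was 0.333 with WT and Ts8 arrays alone (shift 0.256) and 0.111 without either Ts8 replicate (shift 0.251 to 0.260), the smallest these splits allow. Counts of calls moved far more. They are given as all genes, chromosome 8 higher and lower, and elsewhere higher and lower, and were 984, 143, 2, 437 and 402 as reported. Without a filter on dim probes they were 183, 35, 0, 78 and 70, and with probes above background on all arrays 1734, 229, 5, 752 and 748. On slide 1 alone they were 246, 43, 0, 105 and 98. With passage as a covariate they were 6, 0, 0, 0 and 6 (2481 higher and 2594 lower at an unadjusted p under 0.05). With WT and Ts8 arrays alone they were 0, 0, 0, 0 and 0 (2863 and 2269 unadjusted). Leaving out 1 array in turn gave 13 to 1768, 0 to 157, 0 to 7, 5 to 719 and 8 to 885, with 0 on chromosome 8 without Ts8 replicate 2 (447 unadjusted), 22 without WT replicate 2, 42 without WT replicate 1, 44 without either Ts6 array and 43 without either Ts15 array. Median centring gave 5 lower on chromosome 8 and 617 elsewhere, and quantile normalization 4 on chromosome 8. With a replicate block, which is also the row of the slide, the fit called 113 higher and 1 lower on chromosome 8 and 285 higher elsewhere. Against the other lines chromosome 8 calls were 270 higher on slide 1, with 1147 higher elsewhere. There were 7 lower without a filter (784 elsewhere) and 26 lower after median centring (2301 elsewhere). Leaving out 1 array gave 82 (without Ts8 replicate 2) to 397 higher and 1 to 17 lower on chromosome 8, and 439 to 1698 higher and 203 to 1413 lower elsewhere. The percent of chromosome 8 genes above WT was 71.8 after median centring and 72.4 with passage. The lowest window was 0.21 after quantile normalization and in the series table, 0.17 with normexp (highest 0.28), 0.15 without a filter and 0.17 to 0.20 with 1 array left out. Of 100 called genes followed, 692 of 1082 values kept the call, 390 lost it and 0 changed sign, and with 1 array left out 419 of 1000 kept it and 0 changed sign. The cause of these changes was not tested.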
